A study of Mus musculus with 87 samples.

Results

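Trim14, Trim21, Trim25, Trim26, Trim30a, Trim34a, Trim56 and Pml are 8 genes of the tripartite motif (TRIM) family with known parts in antiviral defence. They were taken by gene symbol from the table of sorted midbrain nuclei and from the table of single nuclei, and all 8 were present in both, out of 48526 genes in the table of sorted nuclei. The mice were wildtype C57BL/6J animals, adult and of both sexes, and each was injected in the ventral midbrain with 400 nL of 0.9% saline alone or of saline carrying 40 ng of recombinant mouse IFN-γ, the cytokine that T cells and natural killer cells use to put other cells into an antiviral state. Nuclei were taken at 6, 24, 48 or 72 h and sorted on NeuN, a protein of neuronal nuclei, into a NeuN− fraction, mostly glia, and a NeuN+ fraction, mostly neurons, and pools of sorted nuclei were sequenced well by well. This gave 6 IFN-γ wells per fraction and time point, with 4 saline wells at 6, 48 and 72 h and 6 at 24 h, 84 wells in all. Single nuclei were sequenced from 3 mice at 48 h, 1 given saline and 2 given IFN-γ. The labels call all 84 wells NeuN+, so the fraction of each well was read from the study's own sample sheet by well barcode. The wells of a group come from a few mice and the sources used here do not tie wells to mice, so p-values measure the spread between wells, which is in part technical.

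Most TRIM proteins are ubiquitin ligases built from a RING domain, B-boxes and a coiled coil, often with a C-terminal domain that binds a target. Interferons raise many of them through IRF and other transcription factors, and the proteins act either on a virus directly or on the signalling chains that detect it. Trim25 attaches ubiquitin to the RNA sensor RIG-I, Trim21 is a cytosolic antibody receptor that sends antibody-coated virus to the proteasome, and Pml builds the nuclear bodies that hold DNA viruses in check.

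Wells held 20962 to 301445 UMIs (unique molecules counted) in the NeuN− fraction and 277113 to 1684374 in the NeuN+ fraction. A single count was therefore worth 3.32 to 47.7 CPM (a count scaled to a well total of 1000000) in NeuN− wells and 0.594 to 3.61 CPM in NeuN+ wells. The shallowest well, NeuN− IFN-γ 6 h replicate 1, held no count of Trim14, Trim25, Trim26 or Trim56. Rbfox3, which encodes NeuN, stood at 93.8 to 206 CPM in NeuN+ wells and at 0 to 22.8 CPM in NeuN− wells, apart from saline 24 h wells of up to 130 CPM. The sex of the mice differed between groups. Xist, the RNA of the inactive X chromosome, ranged from 938 to 1266 CPM in NeuN+ IFN-γ wells at 6 h and from 30.1 to 74.9 CPM at 24 h, while saline wells at 24 h spanned 21 to 1177 CPM and only 2 of 6 in each fraction had more of the Y-linked Eif2s3y than of Xist. At 6 h Eif2s3y averaged 131 CPM in saline against 1.61 CPM in IFN-γ wells of the NeuN− fraction and 72.4 against 0.774 CPM in NeuN+ wells (log2 -5.83 and -6.28, both called by edgeR). The part of sex in the results was not tested, beyond repeating the 24 h comparison with those 2 wells.

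The start of transcription of each gene was inspected for the repeat to which IRF factors bind, here GAAA, any 2 bases and GAAA. Promoters of 250 bases before and 50 after the RefSeq start were available for 7 members (GRCm38.p6), with a second start for Trim30a. The repeat, searched on both strands (TTTC, any 2 bases and TTTC on the other strand, overlapping matches counted), occurred in 4 of them, Trim21, Trim26, Trim30a and Trim34a, and in 3.44% of 32851 promoters of the same length. It was not found in these windows of Trim25, Trim56 and Pml. A match is a description of the letters and not a binding site. The promoters that held the repeat are shown because Trim21, Trim30a and Trim34a were called at 6 or 24 h in both fractions while Trim26 was called in none. Trim56 and Pml, without the repeat in these windows, were also called in both fractions. In Trim21 the repeat read as GAAA on the gene's own strand, with overlapping matches that began 14 and 20 bases from the start of transcription. In the other promoters it read as TTTC, at -36 and 3 from the Trim30a starts, at 11 in Trim34a and at -160 and -154 in Trim26. Capitals mark the repeat.
Trim21, chr7:102565433-102565732, minus strand: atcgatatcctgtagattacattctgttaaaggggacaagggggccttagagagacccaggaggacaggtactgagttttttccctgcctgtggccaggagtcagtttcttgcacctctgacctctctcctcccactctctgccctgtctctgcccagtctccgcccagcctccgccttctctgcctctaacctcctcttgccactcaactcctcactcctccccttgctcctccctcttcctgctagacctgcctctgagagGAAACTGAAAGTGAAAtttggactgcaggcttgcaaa
Trim30a, first start, chr7:104465144-104465443, minus strand: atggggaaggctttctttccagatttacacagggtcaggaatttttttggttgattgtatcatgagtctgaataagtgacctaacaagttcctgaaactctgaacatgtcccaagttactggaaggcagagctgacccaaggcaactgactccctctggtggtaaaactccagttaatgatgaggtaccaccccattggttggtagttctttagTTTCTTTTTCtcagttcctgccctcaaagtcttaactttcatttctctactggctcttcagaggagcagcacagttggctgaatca
Trim30a, second start, chr7:104446076-104446375, minus strand: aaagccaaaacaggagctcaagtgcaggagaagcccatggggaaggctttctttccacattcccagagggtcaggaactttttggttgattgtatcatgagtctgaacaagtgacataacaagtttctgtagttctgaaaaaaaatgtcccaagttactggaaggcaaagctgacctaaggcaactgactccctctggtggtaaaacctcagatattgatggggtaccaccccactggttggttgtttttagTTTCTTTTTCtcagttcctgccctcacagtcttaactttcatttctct
Trim34a, chr7:104244207-104244506, plus strand: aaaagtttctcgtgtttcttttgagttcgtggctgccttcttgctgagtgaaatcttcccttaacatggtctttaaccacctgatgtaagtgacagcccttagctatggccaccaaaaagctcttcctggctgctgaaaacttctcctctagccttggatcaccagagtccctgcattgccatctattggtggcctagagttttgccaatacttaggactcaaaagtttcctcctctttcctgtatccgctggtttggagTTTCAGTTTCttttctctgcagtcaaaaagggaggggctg
Trim26, chr17:36836896-36837195, plus strand: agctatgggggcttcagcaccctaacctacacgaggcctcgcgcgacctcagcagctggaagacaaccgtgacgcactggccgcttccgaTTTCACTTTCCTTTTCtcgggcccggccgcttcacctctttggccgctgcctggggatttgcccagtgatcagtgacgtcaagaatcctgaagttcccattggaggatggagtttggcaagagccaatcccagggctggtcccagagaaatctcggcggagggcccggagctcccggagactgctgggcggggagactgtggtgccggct

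Transcripts of Trim30a, Trim21, Trim34a and Trim56 were higher in both fractions at 6 or 24 h after IFN-γ in at least 1 fit. For Trim34a in NeuN− nuclei this was at 24 h only, and the NeuN− calls of Trim21 were lost when single wells were left out. Trim25 was higher in NeuN− nuclei at 6 h, and Pml in NeuN− nuclei at 6 h and in NeuN+ nuclei at 24 h. Trim14 and Trim26 were called in neither fraction. To be called, a gene had to pass a log2 fold change of 1 and reach a p-value below 0.01 in edgeR's quasi-likelihood test, after adjustment over all genes tested. Most members were rare, so edgeR's filter on low counts kept 1 of 8 in NeuN− wells at 6 and 24 h and 4 and 3 of 8 in NeuN+ wells. A gene can pass that filter through the group where it is high, so the number that passed is no evidence, and a second fit without the filter covers all 8. Its standard errors were in places smaller also for abundant genes, so its p-values are less certain for all genes. With the filter, Trim30a was the 1 member called higher in each of the 4 comparisons at 6 and 24 h. The shares of all tested genes called higher in NeuN− wells were 7.86% at 6 h and 7.22% at 24 h, and those in NeuN+ wells 1.08% and 1.47%. Without the filter, 5 and 4 of 8 members were called higher in NeuN− wells, against 1.7% and 2.24% of all genes. In NeuN+ wells it was 4 and 5 of 8, against 0.571% and 0.95%. The median log2 fold change of the 8 without the filter was 2.29 and 1.81 in NeuN− wells, beside medians of -0.02 and 0.17 over all genes, and 1.35 and 1.47 in NeuN+ wells, beside 0.05 and -0.03. No member was called lower at any time. In such sorted pools, more cells of a type and more RNA per cell cannot be told apart.

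**Figure D1:**
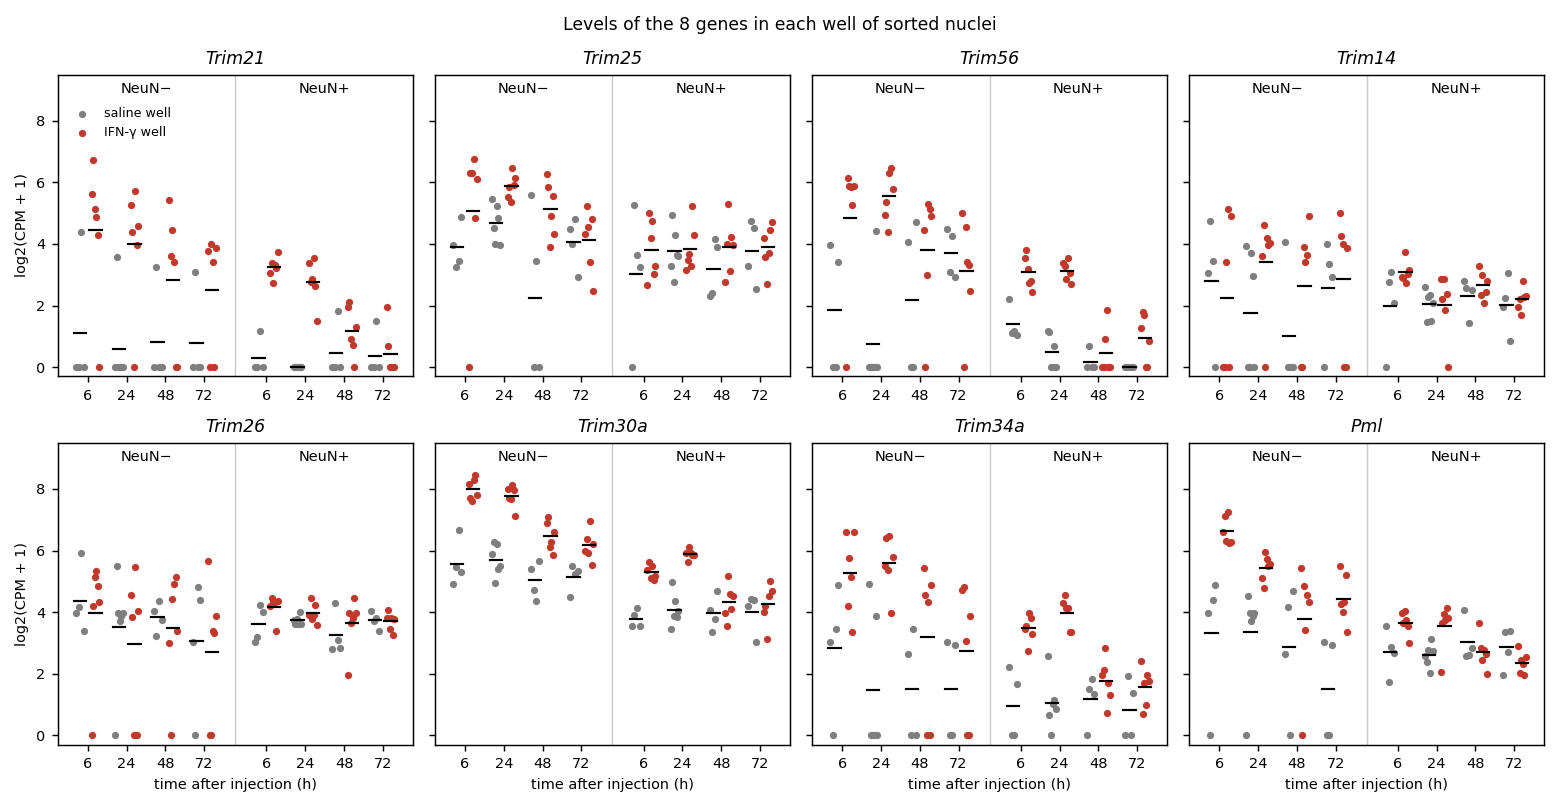
Level of each of the 8 genes in each of the 84 wells, as log2(CPM + 1), by hours after injection, with NeuN− wells on the left and NeuN+ wells on the right of each panel. Grey points are saline wells, red points IFN-γ wells and black bars the mean of the log values, and the red points of Trim30a lie above every grey point at all 4 times in NeuN− and at 6 and 24 h in NeuN+ wells.

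Trim30a and Trim34a lie close together on chromosome 7 (GRCm38, 104409025 to 104465193 on the minus strand and 104244457 to 104262234 on the plus strand), in a mouse cluster of genes related to the retroviral restriction factor Trim5. Trim30a is best known as a brake on Toll-like receptor signalling through NF-κB. In NeuN− wells at 6 h, the 4 saline wells held 29.0, 42.8, 100 and 38.2 CPM of Trim30a, and the 6 IFN-γ wells ranged from 194 to 353 with a median of 254 CPM. Every IFN-γ well was above every saline well. Trim30a rose by 2.28 ± 0.30 on the log2 scale (SE, edgeR, adjusted p = 1.15e-07). At 24 h saline wells ranged from 29.7 to 77.2 (median 50.8) and IFN-γ wells from 138 to 278 CPM (median 228), again without overlap, and Trim30a rose by 1.93 ± 0.26 (adjusted p = 5.63e-07, edgeR). Neuronal wells given saline held 10.8, 14.1, 16.4 and 10.7 CPM at 6 h, and IFN-γ wells 32 to 48.8 CPM (median 37.6). By 24 h the saline wells ranged from 10 to 30.3 CPM (median 14.4) and IFN-γ wells from 48.3 to 68.6 CPM (median 58.1). The groups did not overlap at either time, and the log2 fold changes were 1.5 ± 0.22 and 1.75 ± 0.18 (adjusted p = 1.56e-05 and 1.01e-07, edgeR). These 4 calls held when any 1 well was left out, with changes between 1.37 and 2.73.

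Trim34a, a mouse counterpart of human TRIM34, which acts on some retroviral capsids, was close to the limit of counting in saline wells. The NeuN+ saline wells at 6 h held 3.61, 0, 0 and 2.15 CPM and the IFN-γ wells 5.69 to 14.5 CPM (median 10.4). Summed over wells this was a ratio of 9.65 (exact 95% interval 3.17 to 47.9, counting error only). The 24 h saline wells ranged from 0 to 5.02 CPM (median 0.913) and IFN-γ wells from 9.22 to 22.3 CPM (median 16.7), a ratio of 13.4 (6.79 to 30.3). The groups did not overlap at either time, and Trim34a rose by 3.11 ± 0.62 and 3.63 ± 0.41 on the log2 scale without the filter (adjusted p = 5.01e-05 and 9.3e-17, edgeR). In NeuN− wells at 6 h the saline wells held 7.25, 0, 10.0 and 28.6 CPM against 9.28 to 96.5 CPM after IFN-γ (median 43.6), an overlap, and the change of 1.95 ± 0.62 missed the threshold (adjusted p = 0.0375, edgeR without the filter). At 24 h it was called, with 4 of 6 saline wells at 0 and the highest at 28.9 CPM, against 14.7 to 87 CPM (median 49.1) and 5 of 6 IFN-γ wells above every saline well. Trim34a rose by 2.89 ± 0.58 (adjusted p = 3.11e-05, edgeR without the filter). Reads from the near copies Trim30b, Trim30c, Trim30d, Trim30e-ps1 and Trim34b could be exchanged with these genes, so their values carry that uncertainty. Trim34b itself had at most 1 count in any group of wells. The sources used here do not say whether strand was used in counting, and transcripts on the opposite strand overlap Trim34a (Gm47248) and Trim30a (Gm25405), as they do Trim14, Trim26 and Pml.

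Among the members that act on virus detection, Trim21 (chromosome 7, 102557921 to 102565486, minus strand) was all but absent from saline wells. Its NeuN+ saline wells at 6 h held 0, 0, 1.26 and 0 CPM and the IFN-γ wells 5.69 to 12.4 CPM (median 8.61). The summed counts of 1 and 60 gave a ratio of 24.5 (4.23 to 982). At 24 h all 6 saline wells were at 0 and the IFN-γ wells held 1.84 to 10.6 CPM (median 6.04). Against a floor of 3 counts over the saline group Trim21 was 16.6-fold higher, and the exact lower limit of the ratio was 12.9. Groups were apart at both times, and the log2 fold changes without the filter were 4.18 ± 0.80 and 5.94 ± 0.84 (adjusted p = 1.96e-05 and 2.98e-10, edgeR). The second depends on edgeR's prior count and is no bound. In NeuN− wells the saline wells held 0, 0, 20 and 0 CPM at 6 h, and at 24 h 5 of 6 were at 0 with the highest at 11 CPM. IFN-γ wells ranged from 0 to 105 (median 31.1) and from 0 to 52.2 CPM (median 21.5), with overlap at both times, and the summed counts were 2 against 27 and 1 against 26. Trim21 was called there without the filter (2.85 ± 0.78 and 3.35 ± 0.91, adjusted p = 0.00875 and 0.00589, edgeR). Neither call held when single wells were left out. At 6 h the call was lost without saline replicate 1, 2 or 4 or IFN-γ replicate 2 or 3, with adjusted p up to 0.16, and at 24 h without saline replicate 1, 3, 4, 5 or 6 or IFN-γ replicate 1 or 4, with adjusted p up to 0.038.

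Trim56 (chromosome 5, 137105644 to 137116209, minus strand), a ligase linked to sensing of RNA and cytosolic DNA, was scarce in saline neurons and more abundant after IFN-γ. Its NeuN+ saline wells at 6 h held 3.61, 1.17, 1.26 and 1.07 CPM and the IFN-γ wells 4.41 to 12.9 CPM (median 7.03). Those of 24 h ranged from 0 to 1.25 CPM (median 0.3) and IFN-γ wells from 5.53 to 10.6 CPM (median 7.95). Neither pair of groups overlapped, and the ratios of summed counts were 6.01 (2.23 to 22.8) and 15 (5.48 to 57.1). Trim56 rose by 2.45 ± 0.61 and 3.68 ± 0.58 (adjusted p = 0.00318 and 2.36e-08, edgeR without the filter), but the 6 h call was lost without saline replicate 2, 3 or 4 or IFN-γ replicate 1 or 2, with adjusted p up to 0.0363. The NeuN− saline wells at 6 h held 14.5, 0, 0 and 9.55 CPM and the IFN-γ wells 0 to 69.7 CPM (median 57.2), the shallowest well being the 1 at 0. At 24 h the saline wells ran from 0 to 20.6 CPM with a median of 0, and the IFN-γ wells from 20.1 to 88.3 CPM (median 46.8), so the groups nearly separated. The changes were 2.91 ± 0.65 and 2.92 ± 0.66 (adjusted p = 0.000425 and 0.000367, edgeR without the filter), and both calls held when any 1 well was left out.

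Trim25 (chromosome 11, 88999376 to 89020293, plus strand), the RIG-I ligase and a partner of the RNA-binding protein ZAP, was called in NeuN− wells at 6 h and in no NeuN+ comparison. At 6 h NeuN− saline wells held 14.5, 8.56, 10.0 and 28.6 CPM, and IFN-γ wells ranged from 0 to 107 CPM (median 72.6) with 4 of 6 above every saline well. The log2 fold change was 2.22 ± 0.51 (adjusted p = 0.000571, edgeR without the filter). At 24 h saline wells ranged from 14.7 to 43.3 CPM and IFN-γ wells from 40.2 to 87 CPM, 5 of 6 above every saline well, but the change of 1.17 ± 0.44 missed the threshold (adjusted p = 0.0931, edgeR without the filter). In NeuN+ wells the 4 saline wells at 6 h held 0, 37.5, 11.4 and 8.59 CPM and the IFN-γ wells 5.33 to 30.8 CPM (median 13). The saline wells alone spanned the range of the IFN-γ wells, and with the filter the changes at 6 and 24 h were -0.15 and 0.05 (adjusted p = 0.899 and 0.961, edgeR).

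Pml (chromosome 9, 58218076 to 58249786, minus strand), the scaffold of PML nuclear bodies, had an early difference in glial nuclei. The 4 glial saline wells at 6 h held 14.5, 0, 20 and 28.6 CPM and the IFN-γ wells 74.2 to 153 CPM (median 86.5). At 24 h saline wells ranged from 0 to 22.1 (median 14.2) and IFN-γ wells from 26.5 to 60.3 CPM (median 45.1). The groups did not overlap at either time. Pml rose by 2.74 ± 0.47 at 6 h (adjusted p = 4.91e-07, edgeR without the filter), and the 24 h change of 1.53 ± 0.58 missed the threshold (adjusted p = 0.101). For NeuN+ wells at 6 h, saline gave 10.8, 2.34, 6.31 and 5.37 CPM and the IFN-γ wells 7.06 to 15.5 CPM (median 11.9), and the change of 1.12 ± 0.38 was not called (adjusted p = 0.0636, edgeR). Saline wells at 24 h ranged from 3.07 to 7.79 CPM (median 5.32) and IFN-γ wells from 3.13 to 16.6 CPM (median 12.6), with 5 of 6 above every saline well. It was called without the filter (1.19 ± 0.32, adjusted p = 0.00586, edgeR), and the call was lost without saline replicate 2 or 4 or any of IFN-γ replicates 2 to 6, with adjusted p up to 0.0317.

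The calls without the filter depended on the test and, at 24 h, on which saline wells were used. DESeq2 called Pml and Trim30a in NeuN− wells at 6 h, Trim30a, Trim34a and Trim56 in NeuN− wells at 24 h, Trim21, Trim30a and Trim34a in NeuN+ wells at 6 h, and these 3 with Trim56 in NeuN+ wells at 24 h. With only the 2 saline wells per fraction that, like the IFN-γ wells of 24 h, had more Eif2s3y than Xist, a choice made after seeing the data, Trim21 (5.92), Trim30a (2.05), Trim34a (3.84) and Trim56 (4.18) were still called higher in NeuN+ wells without the filter and Pml was not (0.84, adjusted p = 0.313). In NeuN− wells Trim30a was called (2.37), and Trim21, Trim34a and Trim56 were not (adjusted p = 0.0843, 0.0426 and 0.344, edgeR).

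Trim14 (chromosome 4, 46493781 to 46536141, minus strand), which lacks a RING domain and works as an adaptor at mitochondria and with the DNA sensor cGAS, was not called at any time in either fraction. Neuronal saline wells at 6 h held 0, 5.86, 7.57 and 3.22 CPM and the IFN-γ wells 5.58 to 12.2 CPM (median 6.88), and the change of 0.63 ± 0.45 carried an adjusted p of 0.587 (edgeR without the filter). Trim26 (chromosome 17, 36837134 to 36859398, plus strand), a ligase of the major histocompatibility complex region that acts on IRF3, was not called either. Its NeuN+ saline wells at 24 h ranged from 11.2 to 15 CPM and the IFN-γ wells from 11.1 to 20.9 CPM, with a change of 0.36 ± 0.20 (adjusted p = 0.289, edgeR). In NeuN− wells its group means lay between 13.6 and 25.3 CPM in all 8 groups, with changes of 0.16 to 0.27 on the log2 scale. Trim14 in NeuN− wells was at 0 in up to 3 wells of a group, and there its 24 h change of 1.39 ± 0.83 (adjusted p = 0.427) was not resolved at this depth.

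**Figure D2:**
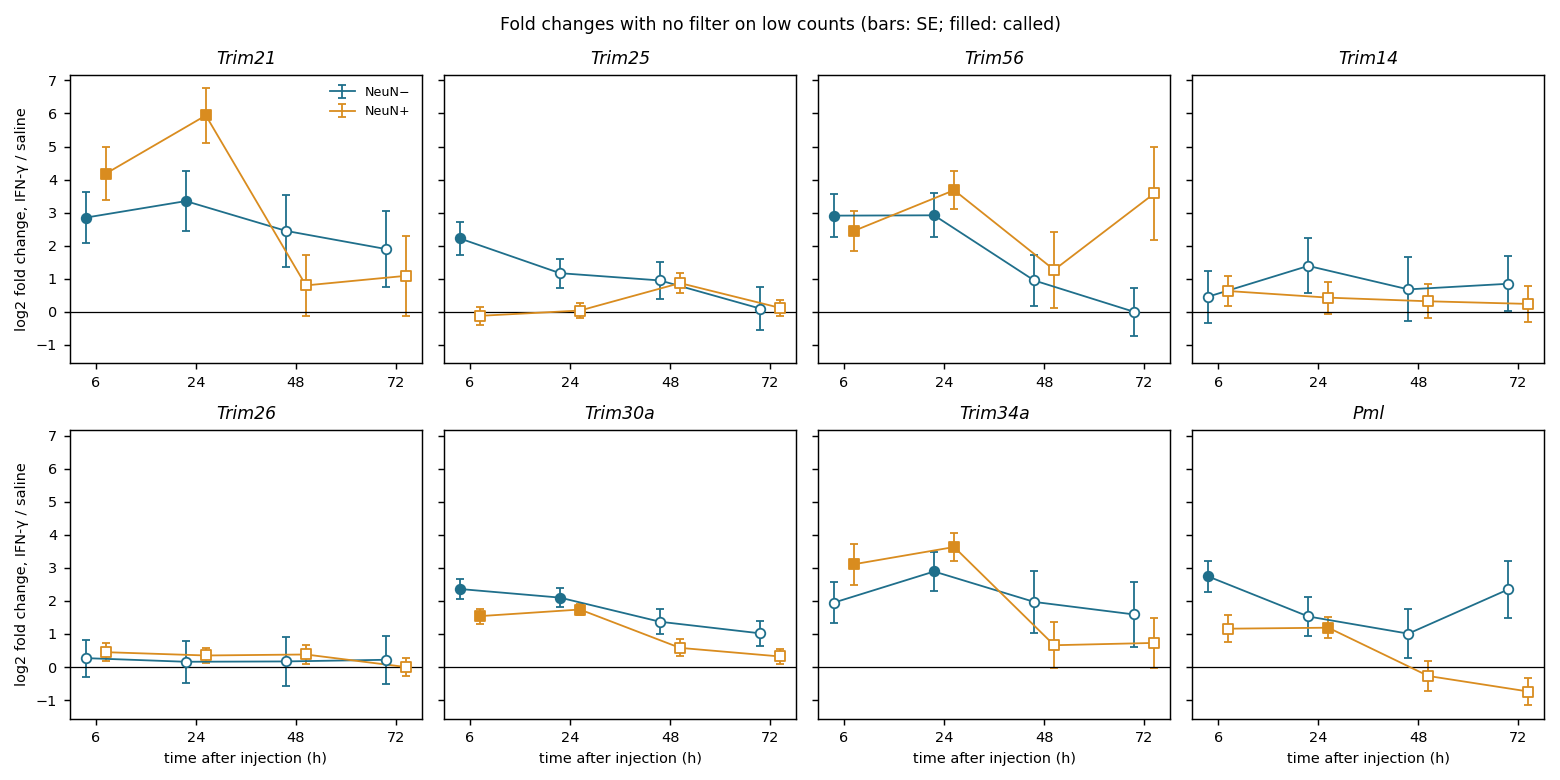
Log2 fold change of each gene with IFN-γ against saline by hours after injection, from edgeR without the filter on low counts, with bars of 1 SE. Blue circles are NeuN− and orange squares NeuN+ wells, filled where called, and filled points occur at 6 and 24 h and not at 48 or 72 h, while values of genes at 0 in a saline group depend on the prior count.

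At 48 and 72 h no member was called in either fraction, with the filter or without it. The filter kept 0 of 8 members in NeuN− wells at both times, so none could be called there with it. In NeuN+ wells it kept 3 of 8 at each time. The shares of all genes called higher at 48 h were 1.23% with the filter and 0.244% without it in NeuN− wells, and 0.15% and 0.142% in NeuN+ wells. At 72 h they were 0.754% and 0.203% among NeuN− wells, and 0.351% and 0.182% in the NeuN+ fraction. At an unadjusted p under 0.05 without the filter there were 3 and 2 members in NeuN− and 2 and 1 in NeuN+ wells, and DESeq2 called 0 at both times. The NeuN− levels of Trim30a were still apart. At 48 h its saline wells held 41.5, 25.3, 19.7 and 50.0 CPM against 56.9 to 135 CPM after IFN-γ (median 86.4), and at 72 h 21.6, 44.6, 36.3 and 39.6 CPM against 45.3 to 124 CPM (median 67.8). The groups did not overlap, yet the changes of 1.37 ± 0.38 and 1.02 ± 0.38 missed the threshold (adjusted p = 0.0479 and 0.397, edgeR without the filter). Pml at 72 h in NeuN− wells was likewise apart, at 7.19, 0, 0 and 6.61 CPM in saline and 9.12 to 43.8 CPM (median 18.7) after IFN-γ, with a change of 2.35 ± 0.87 (adjusted p = 0.377, edgeR without the filter). In NeuN+ wells Trim30a overlapped at both times (15.6 ± 6.61 against 20.4 ± 8.62 CPM at 48 h and 16.3 ± 6.24 against 19.7 ± 8.25 CPM at 72 h, SD). In NeuN+ wells at 72 h Trim56 was at 0 in all 4 saline wells. It was above 0 in 4 of 6 IFN-γ wells (9 counts in all). Against a floor of 3 counts over the saline group Trim56 was 1.62-fold higher, and the exact lower limit of the ratio was 1.07.

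Between IFN-γ wells alone, most called differences lay between 24 and 72 h. In NeuN+ wells from 24 to 72 h, Trim30a fell by 1.57 ± 0.19, Trim34a by 2.81 ± 0.35 and Pml by 1.49 ± 0.29 on the log2 scale (adjusted p = 4.57e-08, 5.14e-08 and 0.000245, edgeR). These were 3 members called lower with the filter, where 1.45% of all genes were, and Trim21 (-3.09 ± 0.56) and Trim56 (-2.59 ± 0.48) joined them without it, where 0.76% of genes were. In NeuN− wells Trim30a, the 1 member that the filter kept, fell by 1.55 ± 0.22 (adjusted p = 4.23e-08, edgeR), against 6.85% of all genes called lower. Without the filter Trim25 (-1.57 ± 0.42), Trim34a (-2.05 ± 0.45) and Trim56 (-1.70 ± 0.47) were also called, 4 members against 1.32% of genes. From 6 to 24 h Pml was the 1 member called lower, in NeuN− wells and without the filter (-1.44 ± 0.32, adjusted p = 0.000496, edgeR). The background was 0.684% of genes there and 3.61% with the filter, and no member was called in NeuN+ wells, against 0.26% and 0.409% of genes. There 2 members with the filter and 3 without it had an unadjusted p under 0.05, and DESeq2 called 0. Time points came from different mice, so time and mouse cannot be told apart in these values. Levels of Xist and Eif2s3y differed between IFN-γ wells of 6 and 24 h, while in NeuN+ wells of 24 and 72 h Xist averaged 50.5 and 46.2 CPM (log2 difference -0.11, adjusted p = 0.802, edgeR) and Eif2s3y 329 and 369 CPM.

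In saline wells, 3 members were lower in neuronal than in glial nuclei. The filter kept 1 of 8 members there, Trim30a. It was called lower (log2 ratio of NeuN+ to NeuN− -1.51 ± 0.22, adjusted p = 2.52e-08, edgeR, limit of 0.5), as were 27.7% of all genes. Without the filter Trim30a (-1.16), Trim34a (-1.79 ± 0.51, adjusted p = 0.00177) and Trim56 (-3.30 ± 0.51, adjusted p = 1.12e-09) were called, against 8.59% of genes. Trim21 at -2.03 ± 0.73 was not (adjusted p = 0.0218, edgeR without the filter), and Trim14, Trim25, Trim26 and Pml lay between -0.63 and -0.14. The median of all genes in that fit was 0.39. The difference of the IFN-γ effect between the fractions was called for no member at any time with the filter. The filter kept only 4, 4, 2 and 1 of 8 members at 6, 24, 48 and 72 h. Of all genes it kept, 2.53%, 4.22%, 0.128% and 0.347% were called. At an unadjusted p under 0.05 there were 2 members at 6 h and 0 at the other times, and DESeq2 called 0. Without the filter 1 member was called at 6 h and 0 at the other times (1, 0 and 2 at an unadjusted p under 0.05), against 0.465%, 1.27%, 0.0811% and 0.155% of genes. That member was Trim25, whose response was 2.43 ± 0.59 log2 units smaller in NeuN+ wells (adjusted p = 0.00623, edgeR without the filter). With the filter the difference was -2.40 ± 0.83 (adjusted p = 0.0582), and without the filter the call was lost in 9 of 20 fits that each left out 1 well. For Trim30a the differences were -0.85 ± 0.44 at 6 h and -0.31 ± 0.37 at 24 h (adjusted p = 0.255 and 0.705, edgeR).

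Marker levels moved with treatment in both fractions. The summed level of 6 oligodendrocyte markers ranged from 6921 to 7973 CPM in saline and 3816 to 4872 CPM in IFN-γ wells at 6 h, and from 7044 to 8623 against 2347 to 2944 CPM at 24 h. The 6 astrocyte markers ranged from 557 to 1207 against 1705 to 2267 CPM at 24 h, and the 7 microglial markers from 420 to 548 against 47.7 to 170 CPM at 6 h and from 326 to 557 against 250 to 346 CPM at 24 h. T cell markers were at 0 in most wells and reached at most 19.3 CPM. In NeuN+ wells at 24 h the astrocyte markers ranged from 100 to 225 CPM in saline against 280 to 307 CPM after IFN-γ, and 3 markers of GABA neurons from 206 to 323 against 107 to 161 CPM. At 6 h the oligodendrocyte markers there ranged from 288 to 403 against 157 to 209 CPM and 3 markers of VGLUT2 neurons from 1841 to 2045 against 1536 to 1684 CPM. The 7 microglial markers in NeuN+ wells ranged from 71.5 to 90.2 against 78.6 to 104 CPM at 6 h. At 24 h they ranged from 88.1 to 120 against 97.8 to 123 CPM, so glial markers were detected in NeuN+ wells too. The part of these markers in the differences of the TRIM genes was not tested in either fraction.

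Of 62 other Trim genes, 3 were called with the filter, which kept 9 and 7 of them in NeuN− wells at 6 and 24 h and 22 and 23 in NeuN+ wells. Of those kept, 2 and 1 were called higher in NeuN− wells, against 7.86% and 7.22% of all genes, and 1 and 2 in NeuN+ wells, against 1.08% and 1.47%. Trim12a, another member of the chromosome 7 cluster, rose in NeuN− wells from 15 ± 11 to 130 ± 73.5 CPM at 6 h (SD) and by 3.54 ± 0.32 at 24 h (log2, adjusted p = 4.24e-10, edgeR), and in NeuN+ wells by 4.72 ± 0.31 at 24 h (adjusted p = 1.14e-11, edgeR). Trim30d, the near copy of Trim30a, rose in NeuN− wells at 6 h (2.15 ± 0.37) and in NeuN+ wells at 6 and 24 h (1.65 ± 0.35 and 2.86 ± 0.27). Trim59 was the 1 Trim gene that fell, from 314 ± 106 to 139 ± 120 CPM in NeuN− wells at 6 h (-1.71 ± 0.25, adjusted p = 8.46e-07, edgeR), at 24 h in NeuN− (-1.35 ± 0.19) and at 6 h in NeuN+ wells (-1.49 ± 0.32). It was 4.43 log2 units lower in NeuN+ than NeuN− saline wells. Trim59 fell in NeuN− wells where the oligodendrocyte marker sum was lower, and the part of that was not tested. Without the filter Trim12c and Trim9 were also called higher at 24 h, and Trim59 and Trim36 were called higher in NeuN+ wells at 72 h.

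The lists around the TRIM proteins were read for comparison. Of 5 genes of ISG15 conjugation, a ubiquitin-like modification, Herc6, the mouse ligase, rose in NeuN− wells by 4.47 at 6 h and 4.77 at 24 h, with rises of 4.17 and 4.15 in NeuN+ wells, and Usp18, which removes ISG15, by 5.30 and 5.90 in NeuN+ wells. Without the filter, 2 of the 5 genes were called higher in NeuN− wells at each time, against 1.7% and 2.24% of all genes, and 3 and 5 in NeuN+ wells, against 0.571% and 0.95%. Of 12 genes of RNA and DNA sensing, Ifih1 and Ddx58, which encode the RNA sensors MDA5 and RIG-I, and Zc3hav1, which encodes ZAP, rose in NeuN+ wells at 6 and 24 h. The RIG-I transcript, whose protein is a substrate of Trim25, rose by 3.21 and 3.04 in NeuN+ wells, where the differences of Trim25 itself were -0.15 and 0.05 and not called. In NeuN− wells Ifih1 rose by 4.45, Ddx58 by 2.86 and Zc3hav1 by 2.77 at 6 h, and Zc3hav1 by 2.68 at 24 h. Without the filter, 4 of 12 sensing genes were called higher in NeuN− wells at each time (median log2 fold change 1.32 and 1.59), and 4 of the 11 tested and 5 of 12 in NeuN+ wells (0.61 and 1.08), against the same shares of all genes. Of 9 genes of PML nuclear bodies, 0 were called with the filter, and Sp100, a resident of these bodies, was called without it in NeuN− wells at 24 h and in NeuN+ wells at 6 and 24 h. No gene of the 3 lists was called lower. Irf1, the IFN-γ-induced transcription factor, rose by 6.88 at 6 h and 6.25 at 24 h in NeuN− wells, with rises of 6.24 and 5.94 in the NeuN+ fraction.

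**Figure D3:**
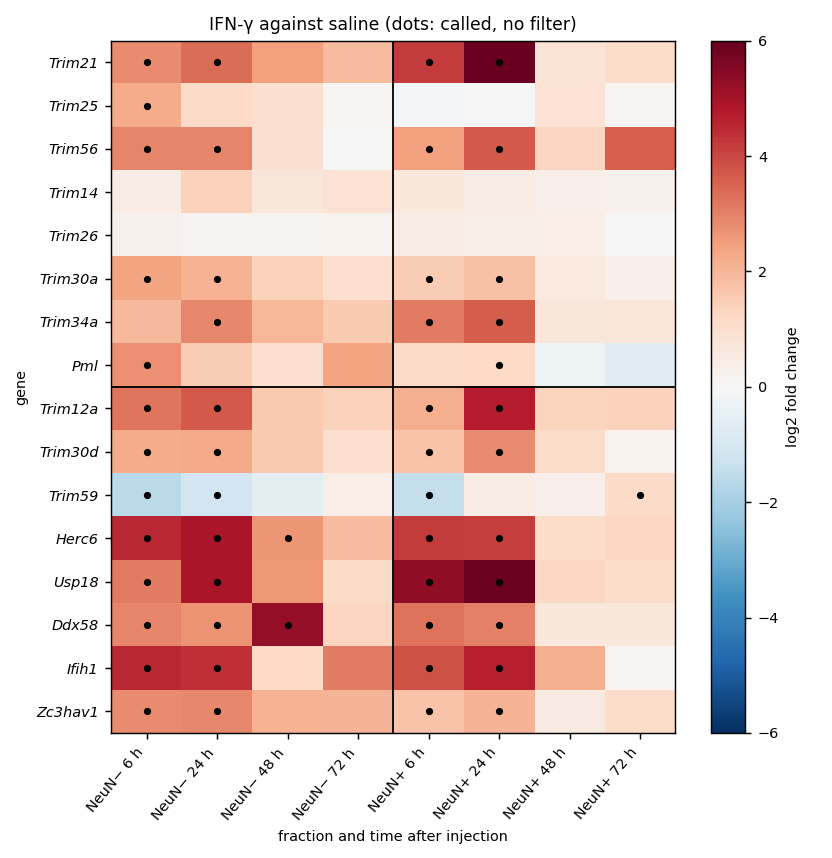
Log2 fold change with IFN-γ against saline for the 8 genes and, below them, the other Trim genes and list genes called with the filter (Trim12a, Trim30d, Trim59, Herc6, Usp18, Ddx58, Ifih1, Zc3hav1), by fraction and hours after injection, from edgeR without the filter. Colour runs from -6 to 6, dots mark calls, and fold changes against saline groups at 0 depend on the prior count, and the rows of Trim14 and Trim26 hold no dot.

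Over the 16 group means, the genes most like each member by Pearson's r of the log2(CPM + 1) means, among 11726 genes, were listed as a description, since the points share libraries and depth. Trim21 was nearest to Irf1 (0.983), Cd274 (0.973) and Parp9 (0.972), Trim34a to Rnf213 (0.980), Ifit3 (0.972) and Herc6 (0.969), and Trim30a to Clec2d (0.980), Parp14 (0.976) and Gbp11 (0.969). For Trim56 they were Samd9l (0.942), Nod1 (0.935) and Trim12a (0.923), and for Pml Vps54 (0.943), Zufsp (0.940) and Dopey1 (0.939). Trim25, Trim14 and Trim26 had lower best values, led by Gm24463 (0.911), Ccdc77 (0.818) and Zbtb2 (0.825). Among the members themselves Trim21 and Trim34a were closest (0.96), followed by Trim30a and Trim34a (0.91), and Trim26 lay between -0.28 and 0.05 with the others.

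The single nuclei place these transcripts in cell classes at 48 h. There were 4699 nuclei, 1016 from the saline mouse and 2574 and 1109 from the IFN-γ mice, with 0 barcodes shared between mice. Classes were named from their markers, and cluster 15 was left unnamed because its nuclei held few UMIs and no microglial marker led it, although all 7 microglial markers were detected and Ly86, Inpp5d, Fyb and Dock8 led it. Another 1494 nuclei (255, 904 and 335 in the saline and the 2 IFN-γ mice) lay in other unnamed clusters and were not tested. Many of these clusters were nearest to the markers of VGLUT2 or GABA neurons. With 1 saline mouse, the test assumes that it varies as the IFN-γ mice do. In oligodendrocyte-like nuclei (191, 744 and 306 in the saline and the 2 IFN-γ mice), 2 members were called higher of 7 tested, where 1.05% of all genes were. Trim25 had 0 UMIs in saline and 31 and 48 in the IFN-γ mice, or 0, 11.5 and 33.2 CPM. Trim34a had 0, 31 and 33 UMIs, or 0, 11.5 and 22.9 CPM. A floor of 3 counts among the 694527 UMIs of the saline nuclei was 4.32 CPM. The exact upper limit for a count of 0 was 5.31 CPM. Against the floor Trim25 was 4.41-fold and Trim34a 3.58-fold higher, and the exact lower limits of the ratios were 3.51 and 2.82. Both were called (adjusted p = 5.32e-05 and 0.000777, edgeR, whose fitted changes depend on the prior count). DESeq2 gave neither an adjusted p, with log2 fold changes of 6.47 for Trim25 and 6.09 for Trim34a. With a finer clustering (901 nuclei in this class) the changes were 7.77 and 7.36 and neither was called (adjusted p = 0.219 and 0.138, edgeR). Cluster 5, 1 of the 3 clusters of this class, held 215 nuclei and 0 of them from the saline mouse, and it was led by the IFN-γ targets Iigp1, Gm4951, Gbp2 and Tgtp2.

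Other members in oligodendrocyte-like nuclei were not called. Trim21 stood at 4.32, 14.1 and 15.9 CPM (3, 38 and 23 UMIs, ratio 3.41, exact 95% interval 1.11 to 17, adjusted p = 0.249), and Trim56 at 1.44, 9.63 and 13.9 CPM (1, 26 and 20 UMIs, ratio 7.71, 1.32 to 311, adjusted p = 0.128). Pml stood at 8.64, 23 and 17.3 CPM and Trim30a at 5.76, 8.89 and 21.5 CPM (adjusted p = 0.287 and 0.455), with Trim26 at 21.6, 25.9 and 34.6 CPM. Both IFN-γ mice were above the saline mouse for each of these genes. How many of all genes share that order was not counted, so it is no evidence of a response.

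In astrocyte-like nuclei (21, 135 and 37), 0 of 6 members tested were called, against 0.105% of all genes, with 2 at an unadjusted p under 0.05 and 0 by DESeq2. Trim34a stood at 0, 43.3 and 30.1 CPM (0, 28 and 7 UMIs, adjusted p = 0.428, edgeR). That was 1.45-fold higher against a floor of 3 counts, with an exact lower limit of 1.12 for the ratio. Trim30a stood at 18.3, 69.5 and 81.6 CPM (2, 45 and 19 UMIs), a ratio of 3.97 (1.06 to 33.5). The 21 saline nuclei limit what this class can show. In cluster 15 Trim30a had its highest level of any class, at 357, 417 and 499 CPM, and so did Trim14 at 179, 119 and 99.8 CPM. The same held for Trim26 at 131, 52.9 and 99.8 CPM and Trim56 at 71.4, 99.3 and 73.2 CPM. It also held for Trim34a at 23.8, 92.6 and 66.5 CPM. Pml stood at 23.8, 146 and 86.5 CPM there (2, 22 and 13 UMIs). None of the 7 tested was called in cluster 15 (adjusted p = 0.489 for Pml and 0.519 for Trim34a), against 0% of all genes, and 0 members had an unadjusted p under 0.05 or a call by DESeq2. Cluster 28, with 35 nuclei, 0 from the saline mouse and 13 and 22 from the IFN-γ mice, led by Cd74, H2-Aa and H2-Ab1, was kept apart from it. With a coarser clustering these merged into 134 nuclei, in which 81 of 7795 genes were called higher and 37 lower, with 0 members called and 1 at an unadjusted p under 0.05.

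In neurons of all 3 named classes Trim26 was present at 19.8 to 34.3 CPM, Pml at 5.84 to 9.04, Trim30a at 4.36 to 7.98 and Trim14 at 2.28 to 7.3 CPM over classes and mice. Trim21 ranged from 0 to 2.19 CPM, and Trim25, Trim34a and Trim56 stayed at or below 1.4 CPM. No member was called of 5 tested in dopamine neuron-like, 5 in GABA neuron-like and 4 in VGLUT2 neuron-like nuclei, against 0.0692%, 0.0408% and 0% of all genes, and DESeq2 called 0 in each. At an unadjusted p under 0.05 there was 1, Trim56 in GABA neuron-like nuclei (0, 5 and 5 UMIs). It was 1.67-fold higher against a floor of 3 counts, with an exact lower limit of 1.12 for the ratio. The 3 named neuron classes held 437, 709 and 526 nuclei, and these results cover those nuclei only. In the 1494 nuclei of other unnamed clusters, Trim30a had an IFN-γ to saline ratio of 2.21 (1.35 to 3.88) and Trim14 2.02 (1.11 to 4.01). Trim26 was the 1 member with a ratio below 1 (0.944, 0.774 to 1.16), and intervals of the rest included 1. These clusters were nearest to several marker lists, so their ratios belong to no single class, and they were not tested. Among them is cluster 28, with 0 nuclei from the saline mouse and 13 and 22 from the IFN-γ mice. Cluster 11, also among them, held 5, 140 and 0. The part of such unequal numbers in the ratios was not tested. Over all nuclei of a mouse, Trim34a stood at 0.245, 2.87 and 4.36 CPM and Trim25 at 0.428, 2.39 and 4.92 CPM, while Trim26 stood at 27.2, 29.1 and 29.7 CPM and Trim14 at 4.83, 5.01 and 5.55 CPM, and these sums were not tested.

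**Figure D4:**
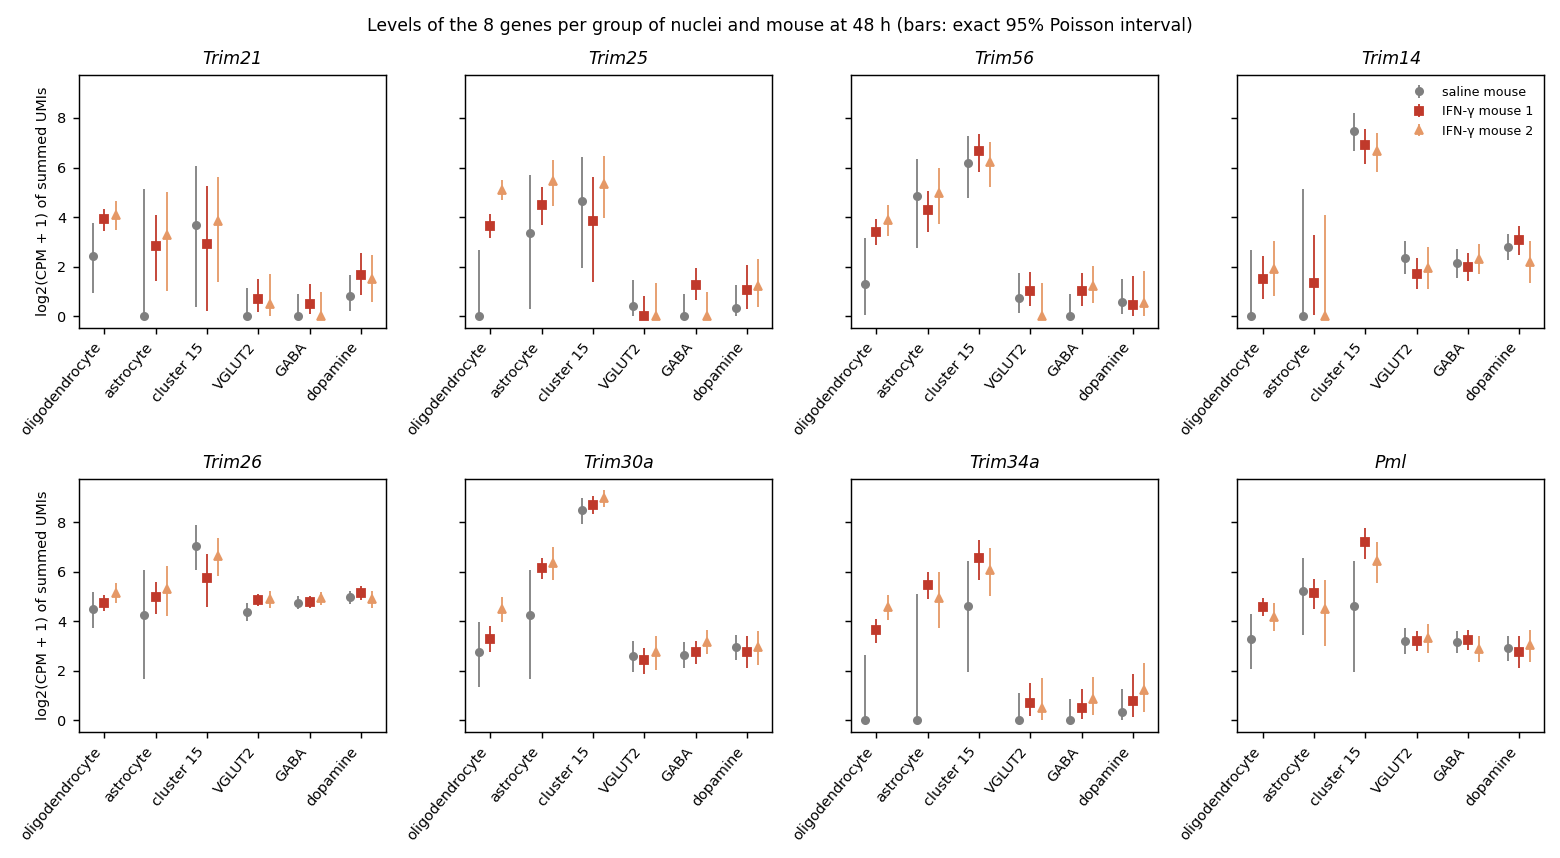
Level of each gene in each class of nuclei and each mouse at 48 h, as log2(CPM + 1) of summed UMIs, with the exact 95% Poisson interval, which covers counting error only. Grey is the saline mouse and red the IFN-γ mice, and the neuron classes lie near 0 for Trim21, Trim25, Trim34a and Trim56.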

How the data were processed

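The authors aligned poly(A)-trimmed reads to GRCm38 with Gencode vM10 by STAR and deposited, as counts of UMIs per gene, 1 table of 84 wells and 1 of single nuclei (introns included, doublets removed by the authors). Neither was normalized. STAR and GRCm38 are named in the submitters' processing notes too, without a version.

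CPM is a count over a well's or mouse's total. Bulk comparisons used edgeR 4.0.16 in R 4.3.3 (limma 3.58.1): filterByExpr or no filter, TMM factors, quasi-likelihood F test, Benjamini-Hochberg adjustment over all genes tested, and a call at a log2 fold change beyond 1 (0.5 between fractions) with adjusted p below 0.01. The wells of 1 fraction and time point entered each fit. The interaction took both fractions, the fraction contrast all 36 saline wells, and the time contrast the IFN-γ wells of a fraction. DESeq2 1.42.0, RLE factors, saline wells of all times and each well left out were alternatives. Nuclei were clustered on 2000 variable genes and 30 principal components with 15 neighbours by Leiden (leidenalg 0.10.2, resolution 1), and UMIs were summed per class and mouse for genes with at least 10 UMIs. The fits were run on simulated data in which only more abundant genes were changed, which does not cover calls of rare genes.

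The 8 members and all lists were chosen with earlier results of these data known. All members were named in every comparison, other Trim and list genes where called with the filter, and 3 genes per member by likeness. Promoters and gene positions are from RefSeq and the annotation of GRCm38. UMI depth limits precision: exact 95% intervals cover counting error only, and a floor of 3 counts covers only that of the saline side. Raw reads were not analysed here.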

Additional observations from a re-analysis of the deposited data

Results flagged for a closer look

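In 24 of 126 groups of wells and genes tested, 1 well lay far from the others, where chance alone flags about 1 in 20. Some were the only well of a group with a count of a rare gene, and others came from groups with counts in several wells.

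Trim21 had 7 flagged saline wells and 1 flagged IFN-γ well. In NeuN− saline they were replicate 3 at 6 h (20 CPM) and replicate 2 at 24, 48 and 72 h (11.0, 8.42 and 7.44 CPM), in NeuN+ saline replicate 3 at 6, 48 and 72 h (1.26, 2.52 and 1.84 CPM), and in NeuN+ IFN-γ replicate 1 at 72 h (2.86 CPM). Trim56 had NeuN− saline replicate 5 at 24 h (20.6 CPM), NeuN+ saline replicate 1 at 6 h (3.61 CPM) and replicate 2 at 48 h (0.614 CPM), and NeuN+ IFN-γ replicate 4 at 48 h (2.58 CPM).

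Trim26 had NeuN− saline replicate 3 at 6 h (60.0 CPM) and replicate 2 at 24 h (44.1 CPM), NeuN− IFN-γ replicate 1 at 72 h (50.1 CPM), NeuN+ saline replicate 2 at 48 h (18.4 CPM) and, as a low well, NeuN+ IFN-γ replicate 5 at 6 h (9.48 CPM). Trim14 had NeuN− saline replicate 1 at 48 h (15.6 CPM) and NeuN+ IFN-γ replicate 3 at 6 h (12.2 CPM). Trim25 had NeuN+ IFN-γ replicate 5 at 24 h (36.3 CPM) and replicate 3 at 48 h (38.7 CPM), and Trim34a NeuN+ saline replicate 1 at 24 h (5.02 CPM). Pml had replicate 1 of both NeuN+ groups at 48 h (15.9 CPM in saline and 11.6 CPM with IFN-γ).

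The response of Trim25 at 6 h differed between fractions, by -2.43 on the log2 scale (NeuN+ less NeuN−, edgeR interaction without the filter, adjusted p = 0.00623). The call was lost without NeuN− saline replicate 1, 2 or 3, NeuN+ saline replicate 2, NeuN− IFN-γ replicate 3 or 4, or NeuN+ IFN-γ replicate 1, 5 or 6, and with the filter or DESeq2.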

How the results depend on the processing

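The counts of members called changed with the filter, the test and the saline wells used. Higher with IFN-γ in NeuN− wells at 6 h was 1 member with the filter, 5 without it, 2 by DESeq2 and 1 to 2 with each well left out. At 24 h it was 1, 4 without the filter and 3 by DESeq2, and 1 without the filter with the 2 saline wells richer in Eif2s3y than Xist. In NeuN+ wells at 6 h it was 1, 4 without the filter, 3 by DESeq2 and 1 to 2 with each well left out. At 24 h it was 1, 5 without the filter, 4 by DESeq2, 2 with saline wells of all times, 4 with the 2 saline wells richer in Eif2s3y and 1 to 3 with each well left out. The difference between fractions at 6 h gave 0 members with the filter, 1 without it, 0 by DESeq2, and 0 to 1 with each well left out without the filter. Lower in saline NeuN+ than NeuN− wells were 1 with the filter, 3 without it and 3 by DESeq2. Lower at 24 than 6 h in NeuN− wells were 0 with the filter, 1 without it and 1 by DESeq2. Lower at 72 than 24 h in NeuN− wells was 1 member with the filter, 4 without it and 4 by DESeq2, and in NeuN+ wells 3 with it, 5 without it and 5 by DESeq2. In oligodendrocyte-like nuclei 2 members were called, 0 by DESeq2, which gave these 2 no adjusted p, and 0 at Leiden resolution 2. The cause was not tested, except that fewer members are tested with the filter. No called change of a single member reversed in sign under any alternative run. Some changes that were not called did, such as that of Trim26 in NeuN− wells at 72 h. It ran from -0.78 to 0.66 with each well left out, without the filter. RLE factors without the filter ended the Trim21 calls in NeuN− wells (adjusted p = 0.0116 at 6 h and 0.0108 at 24 h). The saline wells chosen by Eif2s3y, and the fits that combined no filter with RLE factors or with a well left out, were added after seeing the data.

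Without the filter the SE of Trim25 in NeuN+ wells at 6 h was 0.27 against 0.45 with it, and at 24 h that of Xist was 0.09 against 0.62 and that of Eif2s3y 0.08 against 0.41, so p-values without the filter are less certain for rare and abundant genes. No paired analysis was possible because the replicate numbers are accession order and name no shared mouse.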
